A study of Mus musculus with 6 samples.

Results

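The TGF-beta and activin genes described here are 10 named genes, found by their symbols in the deposited raw count table of 21847 genes. All 10 were present, all passed the filter on low counts that left 14605 genes, and all had reads in each library, with 17 counts as the lowest value. They are the ligand genes Tgfb1 and Inhba, the latency gene Ltbp3, the receptor genes Tgfbr1 and Tgfbr2, the signal transducer Smad3, the inhibitors Smad7, Skil and Tgif1, and the target gene Tgfbi. The libraries hold RNA from mouse spleen cells sorted after 3 days of culture on human mesenchymal stromal cells (MSCs) derived from cord tissue. Before plating, the MSCs were loaded with the fluorescent nanocrystal dye Qtracker. Sorted cells with the dye (Qtracker positive, taken as cells that had engulfed MSC material) were compared with sorted cells without it (Qtracker negative), with 3 numbered libraries in each group. The labels call the sorted cells macrophages. Both groups had been in the same kind of co-culture, so neither is a culture without MSCs, and T cells had been depleted from the splenocytes before they were added. Strain, age and sex of the mice are not given in the sources used here, nor whether the numbered replicates came from separate animals. The p-values therefore measure spread among these libraries only, and that spread may be technical.

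TGF-beta is secreted in a latent form, held by its own propeptide and by a binding protein, and it signals once integrins or proteases release it. The free ligand, like the related activins, brings together type II and type I receptor kinases, which phosphorylate SMAD2 and SMAD3. These join SMAD4 and switch target genes on or off, among them genes for inhibitors of the same pathway. Macrophages make TGF-beta after taking up apoptotic cells, and TGF-beta in turn restrains inflammatory gene expression in macrophages.

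Of the 10 genes, 4 rose and 1 fell in Qtracker positive libraries by edgeR's quasi-likelihood test with the replicate number as a block, at a Benjamini-Hochberg adjusted p under 0.05 over all tested genes. Tgif1 rose 3.30-fold, Tgfbr1 2.99-fold, Tgfb1 1.83-fold and Ltbp3 5.87-fold, and Smad7 was 2.85-fold lower. Over all 14605 tested genes 34.9% were called, 18.5% as higher and 16.3% as lower, so 5 called of 10 is a count to be read against a background in which calls were common. At an unadjusted p under 0.05 it was again 5 of the 10, against 50.3% of all tested genes. A gene that did not pass is not thereby shown to be unchanged. The median log2 fold change of the 10 genes was 0.73, against -0.01 over all tested genes. Levels are in CPM, that is, counts divided by the scaled size of their library. The plot of each library joined to its partner shows the levels behind these calls.

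**Figure D1:**
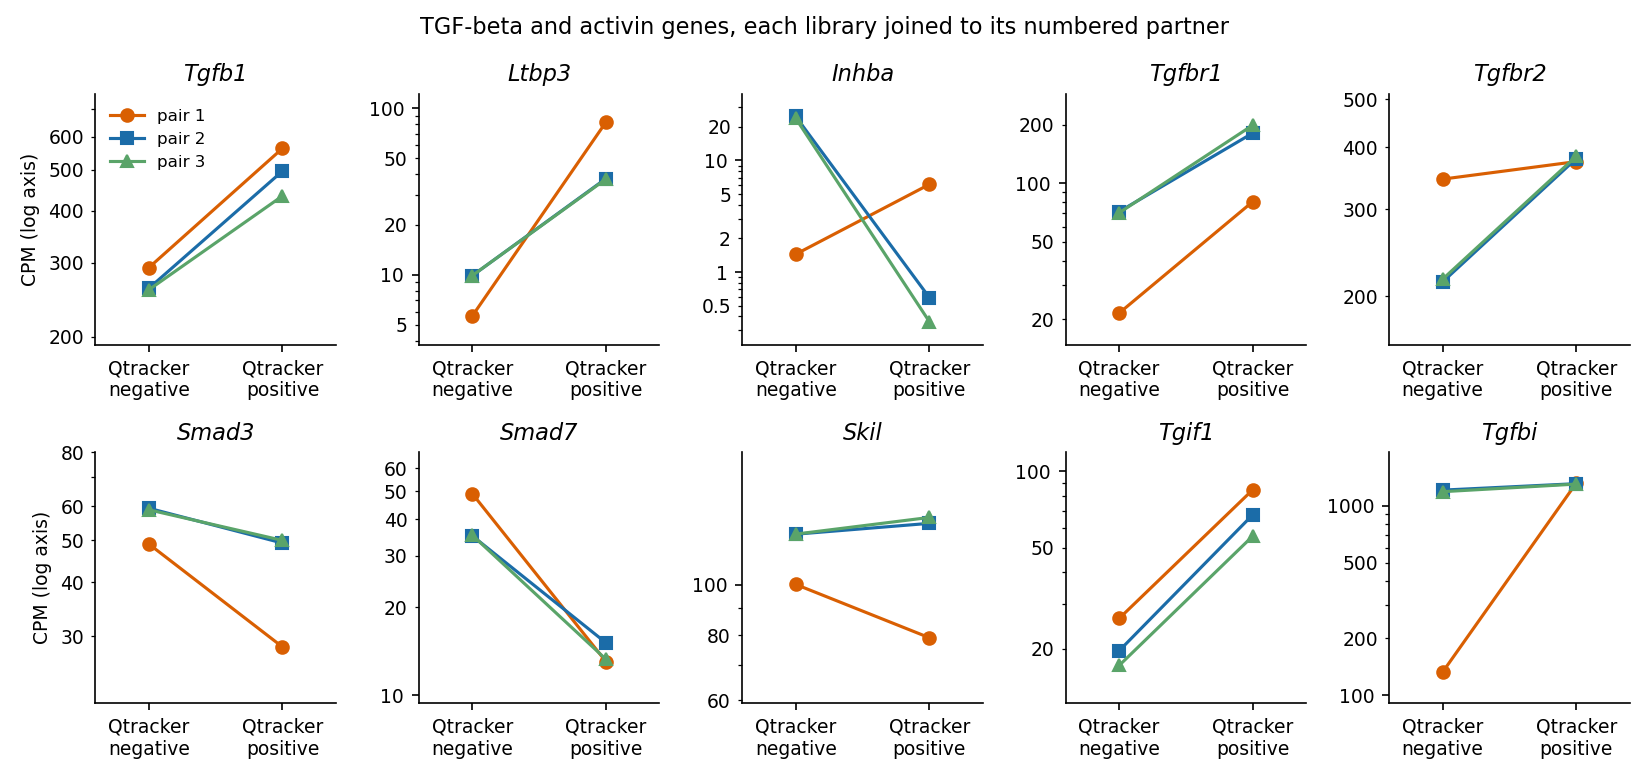
Level in CPM (log axis, a separate range in each panel) of the 10 genes in the 3 Qtracker negative and 3 Qtracker positive libraries, with a line joining each numbered pair. Tgfb1, Ltbp3, Tgfbr1 and Tgif1 climb and Smad7 descends in all 3 pairs, while Inhba climbs in pair 1 and descends in pairs 2 and 3.

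Replicate 1 stood apart from replicates 2 and 3. Over the 10 genes, Qtracker negative replicates 2 and 3 differed by a median of 0.02 and at most 0.19 on the log2 scale, whereas replicate 1 differed from their mean by a median of 0.60 and up to 4.03. In the positive group the corresponding medians were 0.09 and 0.61. Replicates 2 and 3 still differed by more than counting noise, with a variance 4.15 times (negative) and 7.96 times (positive) that of counting over genes with 500 to 2000 counts. They were kept as separate libraries, although this excess does not tell whether they came from separate animals. Total counts ran from 33943090 to 55506993 per library.

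The sorted groups also differed in the markers of the cells they held. The summed level of 7 macrophage markers (Adgre1, Csf1r, Mertk, Cd68 and the C1q chains) was 311, 1618 and 1570.4 CPM in Qtracker negative replicates 1, 2 and 3 and 7972 to 11202 CPM in the positive libraries. The 8 neutrophil markers summed to 2416 CPM in negative replicate 1, to 64514 and 64735 CPM in negative replicates 2 and 3, and to 1201 to 1434 CPM in the positive libraries, although the labels' gate is CD11b positive and Ly6G negative (Ly6C negative in another place). S100a9 and Ngp led that sum in the negative libraries, whereas in the positive libraries most of it was Mmp8, at 1004, 694 and 783 CPM. Mmp8 was not called, at 98.8, 887 and 948 CPM in the negative libraries, and the other 7 neutrophil markers fell. The 6 B cell markers summed to 1710 to 5100 CPM in the negative and 208 to 267 CPM in the positive libraries. The sums of the T cell, NK cell and dendritic cell markers were also lower in the positive libraries. In the negative group they were 24.8 to 113, 4.04 to 12.5 and 23.98 to 60.4 CPM. In the positive group they were 10.7 to 13.7, 0.169 to 0.661 and 2.43 to 4.02 CPM. The T cell marker Cd4 was not called. It was at 22.0, 3.56 and 3.72 CPM in the negative and 3.23, 9.14 and 9.51 CPM in the positive libraries. Eosinophil markers summed to 32.1 to 55.0 against 79.5 to 309 CPM, where the granule genes Epx and Prg2 were higher, Siglecf and Ccr3 were lower, and Il5ra was at 3.996 to 8.09 against 0 to 0.550 CPM and not called. Platelet and megakaryocyte markers summed to 43.7 to 93.0 against 113 to 695 CPM, where Pf4 and Ppbp, which macrophages can also express, were higher and the integrin genes Itga2b and Itgb3 were lower. Of 11 stromal cell markers in the table, 8 were under 1 CPM in every library, and the sum of all 11 was 7.77 to 21.5 CPM in the negative and 3.38 to 4.81 CPM in the positive libraries. The collagen gene Col1a1, abundant in stromal cells, was at 0.803 to 3.54 CPM in the negative and 1.75 to 2.41 CPM in the positive libraries. These counts are for mouse genes, whereas the MSCs were human, so they are not a direct measure of MSC RNA. In such mixed samples, fewer cells of a type and less RNA per cell cannot be told apart, and the part of these markers in the results that follow was not tested.

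**Figure D2:**
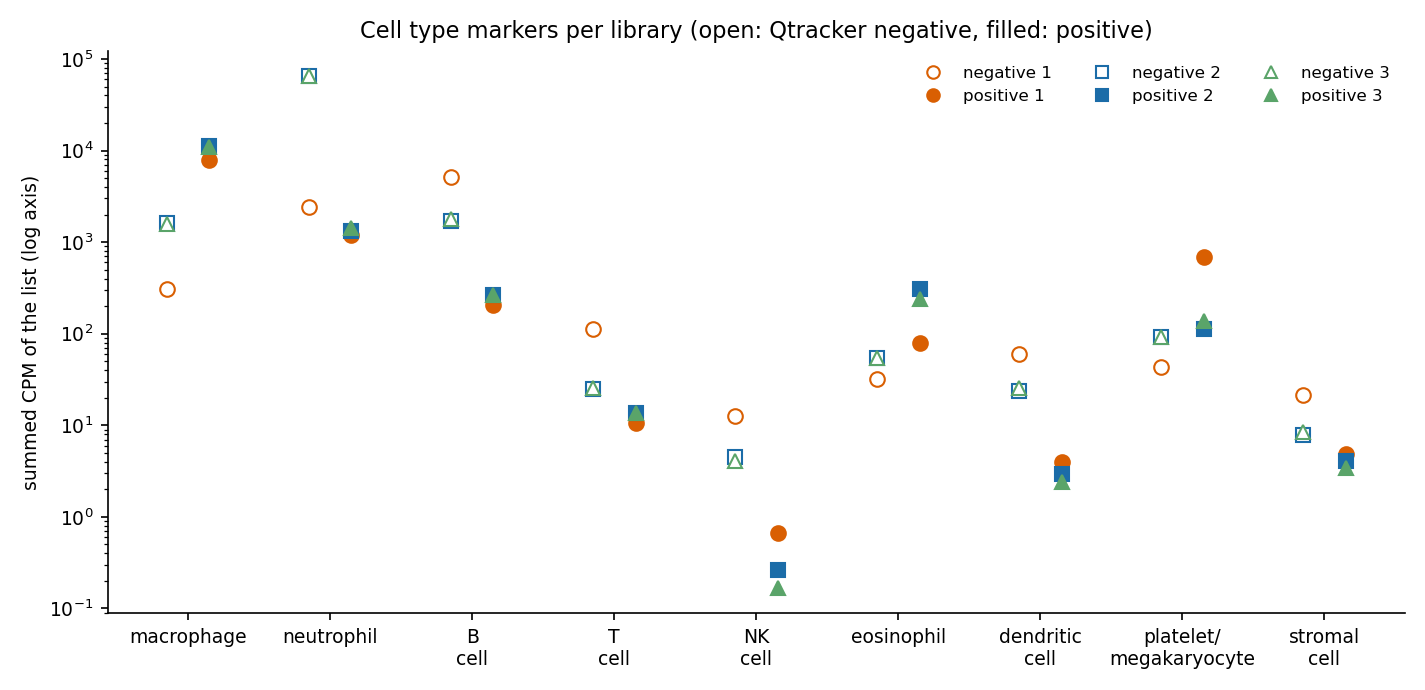
Summed CPM (log axis) of 9 cell type marker lists in each library, open symbols for Qtracker negative and filled symbols for Qtracker positive, with the shape giving the replicate. Macrophage markers are higher in the positive libraries (7972 to 11202 CPM against 311 to 1618), and negative replicate 1 has fewer neutrophil reads (2416 CPM) than negative replicates 2 and 3.

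Promoter sequences are shown for 3 of the genes that rose, because the nuclear end of the pathway reads DNA directly: SMAD3 and SMAD4 bind the CAGA box, whose core is CAGACA. RefSeq start sites (GRCm38.p6, the mm10 assembly) set the 13 windows searched, for 8 of the 10 genes, each from 250 bases before to 50 bases after a start. No window of Skil or Smad7 was searched, which does not tell whether these genes have annotated start sites. CAGACA on either strand was found in windows of 3 genes, Ltbp3, Tgif1 and Tgfbr1, and it occurs in 21.04% of all 32851 promoter windows of the same length and in at least 1 window of 23.6% of genes. The palindrome GTCTAGAC was in no window of the 8 genes searched (0.213% of all windows), which says nothing of Smad7 or Skil. TGANTCA, the AP-1 site, was in the window of Ltbp3 alone (7.81% of all windows). A match is a description of the letters and not evidence of binding. The windows printed here are on the gene's strand, 5′ to 3′, with CAGACA in capitals, and that of Tgfb1 has no match.
Ltbp3, plus strand, chr19:5740650-5740949: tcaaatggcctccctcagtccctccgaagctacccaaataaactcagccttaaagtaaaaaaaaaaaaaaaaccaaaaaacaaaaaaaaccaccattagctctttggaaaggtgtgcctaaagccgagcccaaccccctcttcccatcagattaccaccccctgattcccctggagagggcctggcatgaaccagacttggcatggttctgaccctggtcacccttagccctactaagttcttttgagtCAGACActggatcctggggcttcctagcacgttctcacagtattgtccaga
Tgif1, minus strand, chr17:70853483-70853782: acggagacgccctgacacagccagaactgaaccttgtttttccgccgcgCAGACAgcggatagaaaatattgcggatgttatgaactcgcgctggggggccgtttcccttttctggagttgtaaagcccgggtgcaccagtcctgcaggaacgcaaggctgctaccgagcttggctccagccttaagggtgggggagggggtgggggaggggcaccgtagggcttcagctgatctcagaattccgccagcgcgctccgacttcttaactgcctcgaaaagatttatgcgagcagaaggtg
Tgfb1, plus strand, chr7:25686752-25687051: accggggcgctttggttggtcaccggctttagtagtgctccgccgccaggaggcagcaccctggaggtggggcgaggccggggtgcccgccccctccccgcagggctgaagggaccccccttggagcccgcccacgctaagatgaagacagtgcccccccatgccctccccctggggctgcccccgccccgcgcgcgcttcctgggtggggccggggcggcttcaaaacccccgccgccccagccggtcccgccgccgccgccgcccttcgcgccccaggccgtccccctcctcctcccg
In Ltbp3 the match begins 1 base before the start site, and in the Tgif1 window 201 bases before it. Tgif1 has 5 annotated windows and a match in 1 further window, where it reads TGTCTG and begins 60 bases before that start. The match in Tgfbr1 lies in the second of its 2 windows and begins 203 bases before that start site, which is 32994 bases inside the gene.

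Tgfb1 encodes the ligand TGF-beta 1 (ENSMUSG00000002603, chromosome 7, 25687002 to 25705077, mm10). It stood at 292, 261 and 259 CPM in Qtracker negative replicates 1, 2 and 3 and at 563, 497 and 434 CPM in the positive libraries. Every positive library was above every negative library, and the pairs rose by 0.95, 0.93 and 0.74 on the log2 scale. The group means were 271 ± 18.8 and 498 ± 64.7 CPM (SD, n = 3). The fit gave a rise of 0.87 ± 0.14 (SE, edgeR adjusted p = 0.0226). With library totals alone as scaling it was 0.52 and the call was lost (edgeR adjusted p = 0.0592).

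Ltbp3 encodes a latent TGF-beta binding protein, which is secreted with the latent ligand and tethers it to the matrix (ENSMUSG00000024940, chromosome 19, 5740904 to 5758532). Its levels were 5.64, 9.85 and 9.86 CPM in the negative and 82.4, 37.8 and 37.5 CPM in the positive libraries. Positive replicate 1 was the highest and negative replicate 1 the lowest, and the groups did not overlap. The log2 fold change was 2.55 ± 0.51 (SE, edgeR adjusted p = 0.0337), and the pairs changed by 3.86, 1.93 and 1.92. Without replicate 1 it was 1.94 (edgeR adjusted p = 7.53e-06). No source used here says whether counting used the strand of the reads.

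Inhba encodes the activin A subunit, inhibin beta A (ENSMUSG00000041324, chromosome 13, 16011851 to 16031621), and it was the gene of the 10 on which the pairs disagreed most. It was at 1.44, 24.8 and 23.9 CPM in negative replicates 1, 2 and 3 and at 6.11, 0.591 and 0.359 CPM in positive replicates 1, 2 and 3. In pairs 2 and 3 the negative library was 42.0 and 66.5 times the positive one, while in pair 1 the positive library was 4.23 times the negative one. The pair changes on the log2 scale were 2.05, -5.29 and -5.89. Of all tested genes, 112 (0.767%) showed such a split, over 1 log2 unit up in pair 1 and over 1 log2 unit down in pairs 2 and 3, and 0.904% showed it in either direction. The fitted change of -3.92 ± 2.63 (SE) did not pass (edgeR adjusted p = 0.301). It was -5.66 without replicate 1 (edgeR adjusted p = 3.88e-06, a setting in which 72.9% of tested genes were called), and DESeq2 on all libraries called it at -4.18 (adjusted p = 0.00319). Negative replicate 1, low in Inhba, was also the negative library with few neutrophil reads (2416 CPM against 64514 and 64735). Its macrophage marker sum was the lowest of the group too (311 CPM against 1618 and 1570.4). In the positive group, replicate 1 had the most Inhba. Its neutrophil marker sum was the lowest (1201 CPM against 1321 and 1434). Its macrophage sum (7972 CPM against 11202 and 11060) and eosinophil sum (79.5 CPM against 309 and 241) were lowest too. Its platelet and megakaryocyte sum was the highest (695 CPM against 113 and 139). The part of these cell types in the split was not tested.

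**Figure D3:**
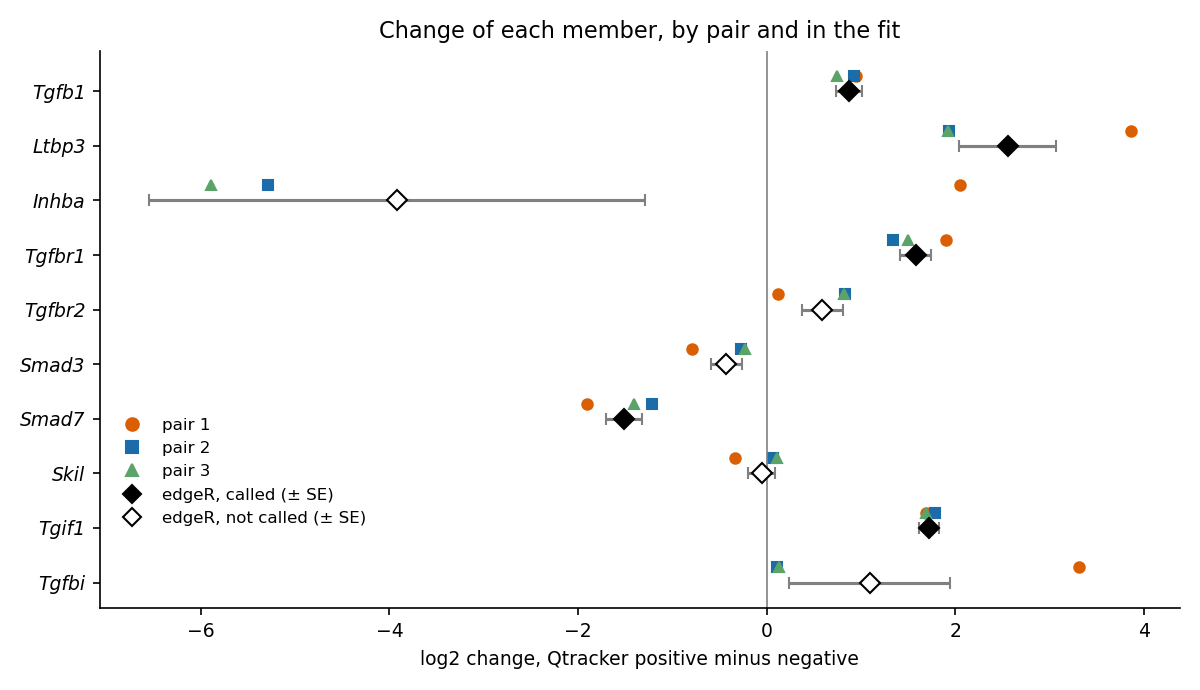
Change of each gene in Qtracker positive against negative cells on the log2 scale, for each numbered pair (coloured symbols) and in the edgeR fit (diamonds, filled where called, with bars of ± 1 SE). The 3 pairs of Tgif1 lie between 1.69 and 1.78, whereas those of Inhba run from -5.89 to 2.05.

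Of the receptors, Tgfbr1 encodes the type I receptor kinase (ENSMUSG00000007613, chromosome 4, 47353222 to 47414931). It was measured at 21.6, 71.5 and 70.5 CPM in the negative and at 80.6, 181 and 199 CPM in the positive libraries. Replicate 1 was the lowest library of its group on both sides, and the groups did not overlap. The change was 1.58 ± 0.16 on the log2 scale (SE, edgeR adjusted p = 0.0122), with pair changes of 1.90, 1.34 and 1.497. Without the replicate block the call was lost (edgeR adjusted p = 0.0728).

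Tgfbr2 encodes the type II receptor, which binds the ligand first (ENSMUSG00000032440, chromosome 9, 116084293 to 116175360). Its levels were 345, 214 and 217 CPM in the negative and 374, 380 and 384 CPM in the positive libraries. The positive libraries lay close together and above all negative libraries, but negative replicate 1 was near them, so the change was 0.12 in pair 1 and 0.83 and 0.82 in pairs 2 and 3. The fitted change of 0.59 ± 0.21 on the log2 scale did not pass the test (SE, edgeR adjusted p = 0.104). It was 0.84 without replicate 1, where it passed (edgeR adjusted p = 2.29e-05).

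Smad3 encodes the transducer that the receptors phosphorylate (ENSMUSG00000032402, chromosome 9, 63646767 to 63757994). It stood at 49.1, 59.4 and 58.9 CPM in the negative and 28.4, 49.3 and 50.01 CPM in the positive libraries. Each positive library was below its partner, by 0.79, 0.27 and 0.24 on the log2 scale, but the highest positive library was above the lowest negative one. The fitted change of -0.43 ± 0.16 did not pass (SE, edgeR adjusted p = 0.116). It was -0.24 without replicate 1, where it passed (edgeR adjusted p = 0.00618).

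Among the inhibitors, Smad7 encodes the inhibitory SMAD that blocks the type I receptor and is itself a target of the pathway (ENSMUSG00000025880, chromosome 18). It was at 49.05, 35.2 and 35.3 CPM in the negative and at 13.0, 15.1 and 13.3 CPM in the positive libraries. The lowest negative library was above the highest positive library, and the positive libraries were close to each other at 13.8 ± 1.14 CPM (SD, n = 3). The pairs fell by 1.91, 1.22 and 1.41 on the log2 scale, and the fit gave -1.51 ± 0.19 (SE, edgeR adjusted p = 0.0154).

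Tgif1 encodes a homeobox corepressor that binds SMAD2 and SMAD3 (ENSMUSG00000047407, chromosome 17, 70844205 to 70853546). Levels were 26.3, 19.6 and 17.1 CPM in the negative and 84.6, 67.4 and 55.5 CPM in the positive libraries. The groups did not overlap, and the change was nearly the same in each pair, at 1.69, 1.78 and 1.69 on the log2 scale. The fitted change was 1.72 ± 0.10 (SE, edgeR adjusted p = 0.00708), which of the 10 genes had the lowest p.

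Skil encodes SnoN, a corepressor that holds SMAD target genes in check (ENSMUSG00000027660, chromosome 3, 31095058 to 31122577). It was at 100.1, 125 and 125 CPM in the negative and 79.1, 131 and 135 CPM in the positive libraries. The groups overlapped, with a fall of 0.34 in pair 1 and changes of 0.07 and 0.11 in pairs 2 and 3. The fitted change of -0.05 ± 0.15 on the log2 scale did not pass (SE, edgeR adjusted p = 0.79), and without replicate 1 it was 0.10 (edgeR adjusted p = 0.0696).

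Tgfbi encodes a secreted matrix protein named for its induction by TGF-beta (ENSMUSG00000035493, chromosome 13, 56609523 to 56639562). Its levels were 133, 1209 and 1186 CPM in the negative libraries and 1317, 1308 and 1301 CPM in the positive libraries. The positive libraries differed little, at 1309 ± 8.14 CPM (SD, n = 3), and negative replicates 2 and 3 were just below them, whereas negative replicate 1 was far below, its positive partner holding 9.92 times its level. The pairs changed by 3.31, 0.11 and 0.13 on the log2 scale. The fitted change of 1.09 ± 0.85 did not pass (SE, edgeR adjusted p = 0.366), and without replicate 1 it was 0.13, where it passed (edgeR adjusted p = 0.0252). The gate gene Itgam, which encodes CD11b, likewise stood at 259.6 CPM in negative replicate 1 and at 2269 and 2211 CPM in negative replicates 2 and 3.

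Over the 10 genes, the CPM ranges of the groups did not overlap for 7, against 59.4% of all tested genes. All 3 pairs changed in the same direction for 8, against 72.7% of all tested genes, with Inhba and Skil as the exceptions. The 5 calls held without replicate 1, when Tgfbr2 and Tgfbi were also higher and Inhba and Smad3 also lower, a setting that called 72.9% of all tested genes. They were lost without replicate 2 (edgeR adjusted p 0.0597 to 0.211) and without replicate 3 (0.0696 to 0.198), where edgeR called 136 genes higher and 175 lower without replicate 2 and 0 without replicate 3, with 4453 and 4209 at an unadjusted p under 0.05. With replicates 2 and 3 summed they were lost too (0.0657 to 0.196).

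**Figure D4:**
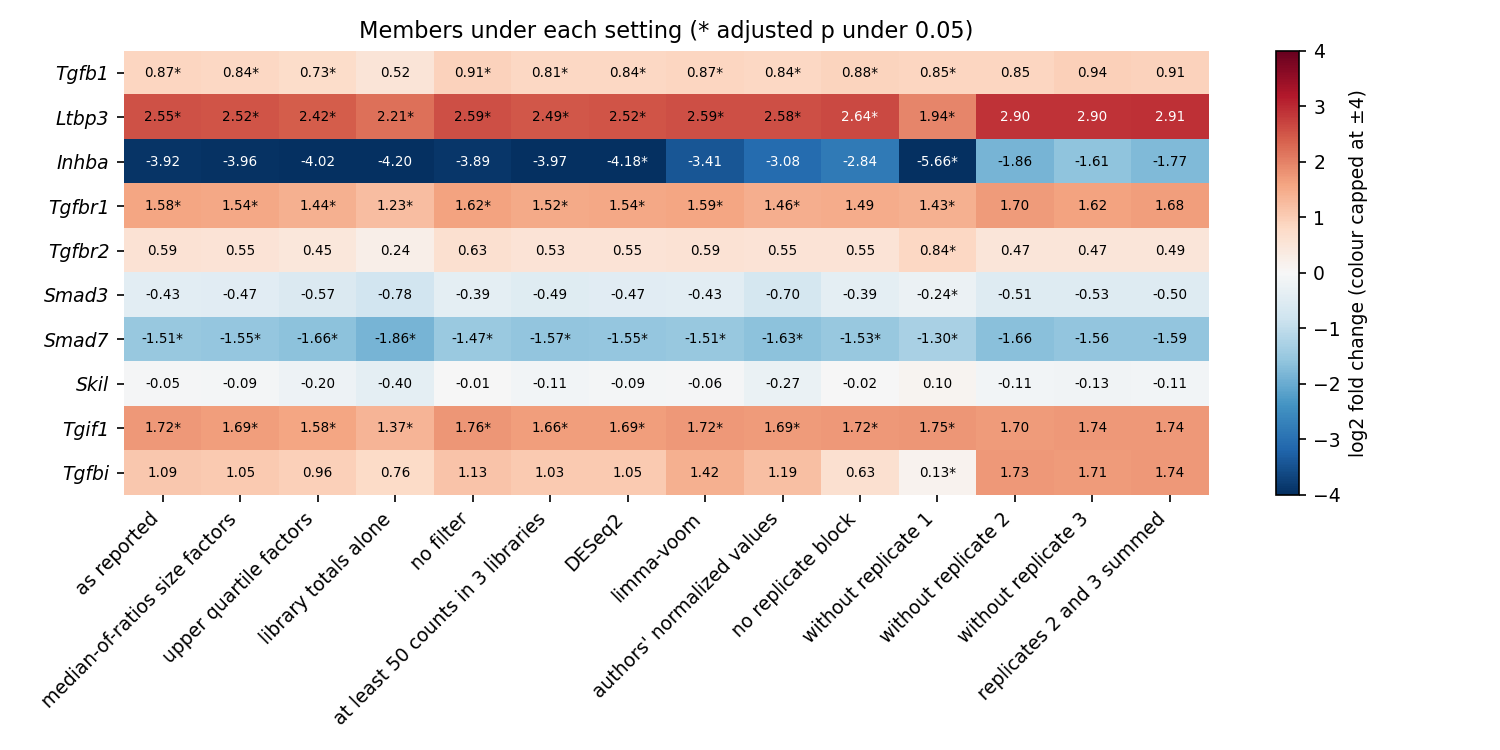
Log2 fold change (number, with a colour scale that ends at 4 on either side) of each gene as reported and under 13 other settings, with an asterisk where the adjusted p was under 0.05. Tgif1 keeps a change between 1.37 and 1.76 in the settings shown, and no gene has an asterisk without replicate 2, without replicate 3 or with replicates 2 and 3 summed.

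Levels of different genes were compared as CPM per kilobase of annotated exon. Exon length was the union over all annotated transcripts of a gene, so the order may differ with the lengths of the transcripts expressed. In Qtracker positive libraries the order of the means was Tgfbi (347), Tgfb1 (98.7), Tgfbr2 (46.3), Tgfbr1 (23.5), Tgif1 (12.3), Skil (11.9), Smad3 (7.68), Ltbp3 (5.79), Smad7 (3.05) and Inhba (0.368 CPM per kb). Neighbouring ranges overlapped for Tgfbr1 (12.3 to 30.5) and Tgif1 (9.88 to 15.04), for Tgif1 and Skil (8.16 to 13.9), for Skil and Smad3 (5.12 to 9.02), and for Smad3 and Ltbp3 (4.13 to 9.09 CPM per kb). In Qtracker negative libraries Tgfb1 was at 51.3 to 58.0 CPM per kb and Tgfbr2 at 26.1 to 42.1 CPM per kb, so the ligand gene stood above its receptor gene in both groups.

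Beyond the 10 genes, 71 further genes of the TGF-beta, activin and BMP pathways were listed by role, of which 67 were in the table and 54 were tested. Of these 9 rose and 11 fell, 20 of 54 or 37.0%, against 34.9% of all tested genes, and their median log2 fold change was 0.20. The counts of calls given below for each list are to be read against the same 34.9%. Of the 13 in the table that were not tested, the ligand gene Tgfb2 was at most 0.193 CPM in any library. The genes named next are those with the 3 lowest p-values of each list, except Lrrc32, Thbs1 and the untested Tgfb2 and Itgb8, which were picked after their values were seen.

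**Figure D5:**
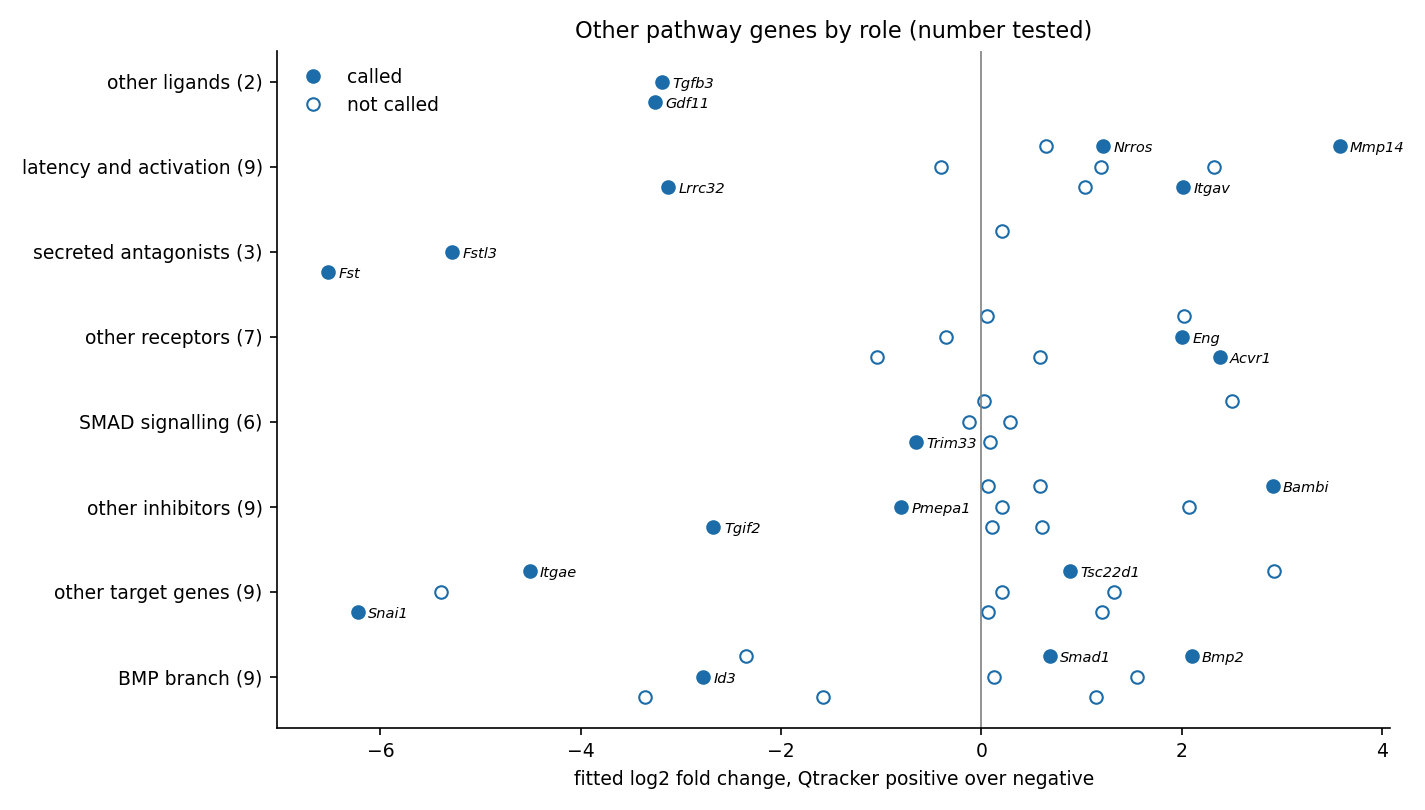
Fitted log2 fold change (Qtracker positive over negative) of the 54 other tested genes, by role, filled and named where called. The 2 tested ligands and the follistatin genes lie at the left (-6.52 to -3.19), and Mmp14, Itgav and Nrros at the right (1.22 to 3.57).

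Both tested ligand genes fell, in contrast to Tgfb1. Tgfb3, which encodes another TGF-beta, was at 67.99, 22.97 and 23.2 CPM in the negative and 2.09, 4.68 and 4.25 CPM in the positive libraries (-3.19 ± 0.71 on the log2 scale, edgeR adjusted p = 0.0407). Gdf11, a relative of the activins, was at 38.02, 17.1 and 16.7 CPM in the negative and 1.295, 3.38 and 2.49 CPM in the positive libraries (-3.26 ± 0.63, edgeR adjusted p = 0.0316). Without replicate 1 the changes were smaller, at -2.36 for Tgfb3 (edgeR adjusted p = 7.67e-06) and -2.52 for Gdf11 (edgeR adjusted p = 2.89e-05). Negative replicate 1 was the highest library for both. The summed B cell, T cell, NK cell, dendritic cell and stromal cell markers were highest there too (5100, 113, 12.5, 60.4 and 21.5 CPM). The part of these cell types in the 2 falls was not tested. Per kilobase, Tgfb3 averaged 11.3 CPM in the negative and 1.09 CPM in the positive group, below Tgfb1 in each.

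Of 9 tested genes of latency and activation 3 rose and 1 fell. Itgav, the alpha V integrin chain whose pairings release latent TGF-beta, was at 38.7, 60.6 and 62.2 CPM in the negative and 170, 233 and 244 CPM in the positive libraries (2.02 ± 0.12, edgeR adjusted p = 0.00683). Its partner gene Itgb8 was not tested and stood at 0.301 CPM or less in every library. Nrros, which holds latent TGF-beta on myeloid cells, rose in all pairs by 1.28, 1.21 and 1.16 (1.22 ± 0.13, edgeR adjusted p = 0.0127). The membrane protease gene Mmp14 rose from 19.0, 120 and 117 CPM to 571, 944 and 885 CPM (3.57 ± 0.55, edgeR adjusted p = 0.0215), and without replicate 1 the rise was 2.96 (edgeR adjusted p = 9.67e-07). Lrrc32, which encodes GARP, the corresponding anchor on regulatory T cells and platelets, fell by 3.13 ± 0.58 (edgeR adjusted p = 0.0294). The activator gene Thbs1 was the most abundant of the list, at 426, 2573 and 2444 CPM in the negative and 8307, 6815 and 6751 CPM in the positive libraries, and its change of 2.32 ± 0.80 did not pass (edgeR adjusted p = 0.0939).

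Of 3 tested secreted antagonists 2 fell. Fstl3, a follistatin-like protein that binds activin, was at 3.35, 12.2 and 11.9 CPM in the negative and 0.0793, 0.326 and 0.296 CPM in the positive libraries. It fell in all 3 pairs, and the fit gave -5.28 ± 0.24 (SE, edgeR adjusted p = 0.00585). Fst, which encodes follistatin, had 25, 86 and 95 counts in the negative and 0, 1 and 1 counts in the positive libraries, a ratio of negative to positive of 103 (95% exact interval 28.03 to 852, covering counting error only), with edgeR adjusted p = 0.0101. Lefty1, an inhibitor of nodal signalling, was at 1.43 to 1.67 CPM in the negative and 1.27 to 2.12 CPM in the positive libraries and did not pass (edgeR adjusted p = 0.664). For both follistatin genes negative replicate 1 was the lowest negative library, as it was for Inhba, but unlike Inhba they were lower in the positive library of pair 1.

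Of 7 other receptor genes 2 rose and 0 fell. Acvr1, a type I receptor for activins and BMPs, was at 2.36, 4.34 and 3.67 CPM in the negative and 20.4, 15.9 and 16.5 CPM in the positive libraries (2.38 ± 0.32, edgeR adjusted p = 0.0171). Eng, the co-receptor endoglin, was at 10.1, 10.9 and 9.95 CPM in the negative and 66.9, 33.3 and 32.1 CPM in the positive libraries (2.00 ± 0.29, edgeR adjusted p = 0.0198). The groups of these genes did not overlap. Acvr2a, a type II activin receptor, changed by 0.59 ± 0.21 and did not pass (edgeR adjusted p = 0.102).

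Of 6 tested genes of SMAD signalling 1 fell, Trim33, which encodes a ubiquitin ligase and SMAD partner (-0.66 ± 0.12, edgeR adjusted p = 0.0283). It was at 47.6, 54.4 and 52.6 CPM in the negative and 26.8, 35.3 and 36.6 CPM in the positive libraries. Zfyve9, the SMAD anchor SARA, gave 2.51 ± 0.80 (edgeR adjusted p = 0.0803), with 0.619 CPM in negative replicate 1 against 4.37 and 4.25 CPM in the others. It passed without the replicate block (2.19, edgeR adjusted p = 0.0432) and with DESeq2 (2.50, adjusted p = 0.00145). Usp15, a deubiquitinase of the type I receptor, gave 0.29 ± 0.16 (edgeR adjusted p = 0.23).

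Of 9 other inhibitors 1 rose and 2 fell. Bambi, a decoy receptor without a kinase, was at 2.98, 2.26 and 2.43 CPM in the negative and 17.9, 19.9 and 19.5 CPM in the positive libraries, a rise of 2.91 ± 0.19 (edgeR adjusted p = 0.00737). All positive libraries were above all negative libraries. Tgif2, the close relative of Tgif1, fell by 2.68 ± 0.48 (edgeR adjusted p = 0.028), opposite in direction to Tgif1. Pmepa1, a target that sequesters SMADs, fell by 0.80 ± 0.16 (edgeR adjusted p = 0.0321), a call lost without the replicate block (edgeR adjusted p = 0.198) and on the authors' normalized values (limma adjusted p = 0.0832).

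Of 9 other target genes 1 rose and 2 fell. Itgae, the integrin chain CD103, was at 3.10, 2.91 and 3.35 CPM in the negative and 0.132, 0.143 and 0.127 CPM in the positive libraries (-4.51 ± 0.33, edgeR adjusted p = 0.00826). It marks dendritic and T cells in spleen, whose summed markers were also lower in the positive libraries, although Cd4 was not called. In negative replicates 1, 2 and 3 the dendritic cell sums were 60.4, 23.98 and 25.5 CPM. The T cell sums there were 113, 24.8 and 25.8 CPM, whereas Itgae was nearly level. The part of these cells in the fall of Itgae was not tested. Snai1, a repressor of epithelial genes, had 28, 256 and 291 counts in the negative and 0, 4 and 4 counts in the positive libraries (edgeR adjusted p = 0.00896). Tsc22d1 rose by 0.88 ± 0.20 (edgeR adjusted p = 0.0403). That call was lost with library totals alone (0.53, edgeR adjusted p = 0.179), with upper quartile factors and on the authors' normalized values (0.30, limma adjusted p = 0.276).

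In the BMP branch 2 of 9 tested genes rose and 1 fell. Bmp2, a ligand, was at 0.757, 0.717 and 0.537 CPM in the negative and 1.69, 3.67 and 3.66 CPM in the positive libraries (2.10 ± 0.45, edgeR adjusted p = 0.0385). Smad1, the transducer of that branch, rose by 0.68 ± 0.15 (edgeR adjusted p = 0.0414), and neither gene passed with library totals alone (edgeR adjusted p = 0.0707 for Bmp2 and 0.275 for Smad1) or with upper quartile factors (0.0534 and 0.101). Id3, a target, was at 51.0, 19.5 and 19.3 CPM in the negative and 2.56, 4.97 and 4.29 CPM in the positive libraries (-2.78 ± 0.60, edgeR adjusted p = 0.0382), and it is also abundant in B cells. Its change was -2.06 without replicate 1 (edgeR adjusted p = 1.61e-05) and -4.39 on the authors' normalized values (limma adjusted p = 0.012).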

How the data were processed

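RNA-seq was available for 6 libraries of sorted mouse cells, 3 Qtracker positive and 3 Qtracker negative. Per the submitters' processing notes, the authors worked with Salmon, FastQC and the mm10 build; no versions or annotation release are stated. Libraries came from a stranded kit, per the labels' protocols. The deposited raw table holds estimated counts as whole numbers. The deposited normalized table holds a signal, in which each count is multiplied by a factor specific to the gene and library, by a formula no source used here gives. It served only as an alternative, as log2(value + 1) in limma. Symbols missing for 5429 genes were filled from GENCODE M21 for 5210.

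Counts were filtered by filterByExpr (minimum count 10, minimum total 15), scaled by TMM, and tested with edgeR 4.0.16 in R 4.3.3 (quasi-likelihood F test, replicate number as a block, 2 residual degrees of freedom). Adjusted p-values are Benjamini-Hochberg over all 14605 tested genes, called under 0.05. Each SE is the log2 fold change over the root of F. Levels in CPM used TMM-scaled totals, and log2 pair changes add a prior of 2 counts. The replicate numbers pair the libraries because the series' design text calls them paired. Deviations of same-numbered libraries from group means had correlations, over genes, of 0.198, 0.0769 and 0.158, and those of libraries with different numbers ran from -0.185 to 0.147, so pair 2 was not set apart from replicate 3 by this check. Alternatives used limma 3.58.1, DESeq2 1.42.0, other scalings and filters, no block and fewer replicates.

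The 10 genes, the pathway and marker lists and the alternatives were chosen with earlier results of these data known. Named genes were the 10, the 3 lowest edgeR p-values of each other pathway list, Itgam and Adgre1. The promoter motifs were chosen after several others had been searched. The fit was tested on simulated data. A macrophage marker is not reported here and is left out of the summed levels. Figures were drawn with matplotlib 3.10.9.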

Additional observations from a re-analysis of the deposited data

How the results depend on the processing

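Median-of-ratios factors, upper quartile factors, no filter, a filter of 50 counts in 3 libraries, limma-voom and the authors' normalized values left all 10 genes on the same side of the threshold and in the same direction. Library totals alone, which moved the median of all tested genes from -0.01 to -0.36 (upper quartile factors to -0.15), called 1572 genes higher and 3316 lower, against 2707 and 2384, and turned Lefty1 to -0.14 and Usp15 to -0.060. DESeq2 called 3421 genes higher and 3665 lower over all tested genes. Of the 10 genes it called 4 higher and 2 lower, and of the 54 other pathway genes tested 18 higher and 14 lower. Leaving out each replicate in turn gave 0 to 5538 genes higher and 0 to 5352 lower over all tested genes. It gave 0 to 6 higher and 0 to 3 lower of the 10 genes, and 0 to 27 higher and 0 to 19 lower of the other pathway genes, with the highest counts without replicate 1. With replicates 2 and 3 summed all of these counts were 0 by edgeR, with 4488 genes at an unadjusted p under 0.05. Leaving out each replicate gave -0.13 to 0.10 for Skil and -0.28 to 1.56 for Itgam, which turned without replicate 1. Without the replicate block 2911 genes were higher and 3058 lower, 3 and 1 of the 10 genes, and 12 and 13 of the other pathway genes, and among the genes named this ended the calls of Tgfbr1 and Pmepa1 and gave that of Zfyve9. Fits with a replicate left out or summed had 1 residual degree of freedom. The lowest count of any of the 10 genes was 17. Where a setting changed a call, the cause was not tested.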

Other observations

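In 3 of the 7 other receptor genes tested, Acvrl1, Tgfbr3 and Acvr1b, pair 1 went against both other pairs, and these genes were picked after their values were seen. Over the 54 other pathway genes tested it did so for 11, a share near the 18.1% of all tested genes. Acvrl1, a type I receptor of endothelial cells and macrophages, had 8.37, 116 and 121 CPM in the 3 Qtracker negative libraries and 56.1, 59.0 and 56.5 CPM in the positive libraries. It thus changed by 2.74 in pair 1 and by -0.97 and -1.10 in pairs 2 and 3, and the fit gave 0.06 (edgeR adjusted p = 0.968). Tgfbr3, the co-receptor betaglycan, changed by 1.02, -1.95 and -1.93 in pairs 1, 2 and 3, and Acvr1b, a type I activin receptor, by 0.15, -0.56 and -0.63. By contrast, the transducer genes Smad4 and Smad2 changed little in every pair. Smad4 changed by 0.10, -0.02 and -0.01, and Smad2 by 0.22, 0.01 and 0.04. The transducer gene Smad3 changed by -0.79, -0.27 and -0.24.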
